A study of Mus musculus with 4 samples.

Results

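The Hedgehog pathway genes Gli1, Gli2, Gli3, Ptch1, Hhip and Smo were followed through 4 single-cell RNA libraries of stroma-enriched mouse submandibular gland, a major salivary gland. These 6 genes were taken by symbol from the 31053 genes listed in each library, and all 6 were present. The platelet-derived growth factor receptor genes Pdgfra and Pdgfrb, which mark fibroblasts and vessel-associated mural cells, served as the reference for the overlap with stromal cells.

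All libraries came from female C57BL6/J mice. For 2 libraries (deligated 1 and 2, age 14 weeks), the main salivary ducts were clipped shut for 14 days and the clip was taken off 5 days before harvest. The other 2 libraries (homeostatic 1 and 2, age 12 weeks) came from glands without surgery, so age differs along with surgery. The version of the counting software differs between the groups too, as given below. In both groups epithelial and red blood cells had been bead-depleted with EpCAM and Ter119 antibodies and dead cells removed. The protocol names sublingual glands as well, whereas the titles name the submandibular gland only. The labels do not say that libraries of a group came from separate animals, so p-values measure only the spread between these samples, which may be technical.

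Hedgehog ligands (Shh, Ihh and Dhh) bind the receptor Ptch1 and lift its block on the membrane protein Smo, which signals through the primary cilium to the Gli transcription factors. Gli2 is known as the main activator and Gli3 mostly as a repressor, while Gli1, Ptch1 and the ligand-binding inhibitor Hhip are themselves switched on by the pathway in many tissues. In several organs Gli1 marks mesenchymal cells along vessels.

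The deposited counts are unique molecular identifiers (UMIs), each standing for 1 captured RNA molecule. The libraries held 4725 to 13266 barcodes and 35662241 to 53898793 UMIs, and 4357, 7823, 10615 and 10900 cells passed filtering (deligated 1, deligated 2, homeostatic 1 and homeostatic 2, the order used throughout). Between 14 and 54 barcodes were shared by any pair of libraries, at most 0.482% of the smaller one. Cells were clustered without the 6 Hedgehog genes, Pdgfra and Pdgfrb, and classes were named from marker genes. Fibroblast-like cells numbered 354, 754, 262 and 249, and mural-like cells (pericytes and vascular smooth muscle) 322, 449, 115 and 86. These 2 classes are called stromal here. Different clusters held the fibroblast-like class in the 2 groups: 1 cluster led by Cilp, Mfap4 and Spp1 held all 1108 deligated and 22 homeostatic cells, and another led by Gm16263, Eda and Astn2 held the other 489 homeostatic cells and no deligated cell. Endothelial-like cells were split in the same way: of the clusters of 5085, 794 and 722 cells, 1, 1 and 0 cells were deligated, the cluster of 4309 cells held 42 and 38 homeostatic cells, and clusters of 643 and 503 cells held both groups. In spite of the EpCAM depletion, 3129 and 3387 epithelial-like cells remained in the homeostatic libraries, against 54 and 139 in the deligated ones. Hemoglobin and other red cell markers summed to 2420 CPM (UMIs of the gene scaled to all UMIs of the class in that library) in fibroblast-like and 3080 CPM in mural-like cells of deligated 2, against 34.5 to 416 CPM in the other libraries. The part of these differences in the results below was not tested.

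Among the ligands, Dhh, known from nerve sheath, was the one seen repeatedly. Schwann-like cells held 15, 10, 5 and 12 Dhh UMIs, or 93.1, 33.3, 36.6 and 88.2 CPM, and both groups covered the same range. Endothelial-like cells held 3.39, 2.86, 3.69 and 3.58 CPM of Dhh, with 2.07, 1.29, 1.43 and 1.29% of cells positive. Stromal cells held 0, 4, 0 and 1 Dhh UMIs. Dhh overlaps Rhebl1 on the same strand in the annotation, so its counts are uncertain. No Shh UMI was found in any class, and Ihh gave 3 UMIs, 2 in endothelial-like and 1 in NK/innate lymphoid-like cells.

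Ptch1, the receptor (chr13:63508328-63573598, minus strand, GRCm38), was present in every large class, so it did not mark stroma. Levels were ranked over the 8 named classes with at least 28 cells in every library, which leaves out lymphatic endothelial-like, erythroid-like and B cell-like cells. Lymphatic endothelial-like cells, 5 to 8 per library, had mean Ptch1 levels of 61.4 CPM in the deligated and 25.6 CPM in the homeostatic libraries. Among the ranked classes the highest mean level over the 4 libraries was 39.6 CPM in Schwann-like cells (range 29.2 to 51.5), followed by 33.1 CPM in endothelial-like cells (28.4 to 38.0), and these 2 ranges overlapped. Mural-like cells followed at 19.3 CPM (14.5 to 23.7), below the endothelial range. T cell-like (16.0 CPM), fibroblast-like (15.2 CPM) and NK/innate lymphoid-like cells (14.7 CPM) overlapped with the mural-like range. Macrophage-like and epithelial-like cells were the lowest of these 8, at 7.54 and 7.03 CPM.

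In fibroblast-like cells Ptch1 stood at 15.2, 12.9, 19.7 and 13.2 CPM, and the groups overlapped. Its log2 fold change, deligated over homeostatic, was -0.18 (SE 0.26, 95% interval -0.76 to 0.41, edgeR adjusted p = 0.661, n = 2 libraries per group). Mural-like cells had 23.7, 21.4, 17.5 and 14.5 CPM, with both deligated libraries above both homeostatic ones, but the log2 fold change of 0.48 (95% interval -0.30 to 1.26) did not pass the test (edgeR adjusted p = 0.512). Endothelial-like cells, the most numerous class with Ptch1, showed 38.0, 34.3, 31.9 and 28.4 CPM and a log2 fold change of 0.29 (95% interval 0.01 to 0.57, edgeR adjusted p = 0.102). Leaving out deligated 2 raised that value to 0.42 and took it past the threshold of 0.05 (edgeR adjusted p = 1.32e-05), as did removal of a trend over intron length (0.44, edgeR adjusted p = 0.0338).

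Detection depends on depth as well as on level. Ptch1 was detected in 17.2, 9.42, 10.7 and 8.03% of fibroblast-like cells, whose median UMI counts were 13133, 9049, 6730.5 and 6645. In endothelial-like cells 23.1, 15.8, 11.2 and 9.92% were positive, at median counts of 5820, 4405.5, 3610 and 3618. With every cell thinned to 1000 UMIs the endothelial shares became 2.91, 3.43, 3.02 and 2.57%, and the groups overlapped. Fibroblast-like shares after thinning were 2.54, 0.821, 1.17 and 2.03%, again overlapping.

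Hhip (chr8:79965851-80058006, minus strand), which binds and sequesters ligand, was barely detected. Stromal cells held 4, 3, 0 and 3 Hhip UMIs in 4, 2, 0 and 2 cells. All 8 mural-like UMIs were in the smooth muscle cluster. Homeostatic 1 had 0 positive of 377 stromal cells, which allows a share of cells with a UMI of up to 0.796% (3 counts of the total), and endothelial-like cells had none in any library. The gene did not pass the filter on low counts in any comparison.

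Among the ligand-binding partners of Ptch1, the co-receptor Gas1 rose in fibroblast-like cells while Cdon and Boc fell. Gas1 stood at 1180, 1350, 822 and 780 CPM, a log2 fold change of 0.72 (edgeR adjusted p = 0.00151). For Cdon the levels were 25.5, 34.2, 71.9 and 83.3 CPM (log2 fold change -1.31, edgeR adjusted p = 0.000532), and for Boc 48.5, 53.4, 92.2 and 98.9 CPM (-0.85, edgeR adjusted p = 0.00199). In each of the 3 genes the groups did not overlap, though the share of all genes without overlap was not counted. Of the 11415 genes tested in this class, 25.5% were called. Gas1 has no intron in the annotation, whereas Cdon and Boc have 78.8 and 69.4 kb of intron, a length that moves with fold change here, as described for Gli2 and Gli3. With that trend removed Cdon kept its call (-0.86, edgeR adjusted p = 0.00903), whereas Gas1 (0.37, edgeR adjusted p = 0.0537) and Boc (-0.46, edgeR adjusted p = 0.0559) did not pass.

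Smo (chr6:29735503-29761365, plus strand), the signal-passing membrane protein, was higher in fibroblast-like than in mural-like cells in every library, with no group difference past the test. Fibroblast-like cells held 73.8, 71.9, 77.6 and 86.3 CPM, and 61.6, 45.1, 39.7 and 43.4% of them were positive. Mural-like cells held 35.0, 31.9, 54.3 and 27.1 CPM, below the fibroblast-like range in every library. With the library as a block, fibroblast-like over mural-like gave a log2 fold change of 1.05 (SE 0.15, adjusted p = 3.14e-05 by edgeR). Deligated against homeostatic, Smo differed by -0.11 in fibroblast-like cells (95% interval -0.44 to 0.22, edgeR adjusted p = 0.627) and by -0.30 in mural-like cells (-0.96 to 0.36, edgeR adjusted p = 0.656). Endothelial-like cells had 12.9, 10.6, 11.3 and 12.5 CPM, with a log2 fold change of 0.00 (95% interval -0.40 to 0.40). Of the 8 ranked classes NK/innate lymphoid-like cells were lowest, with a mean of 0.536 CPM.

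**Figure D1:**
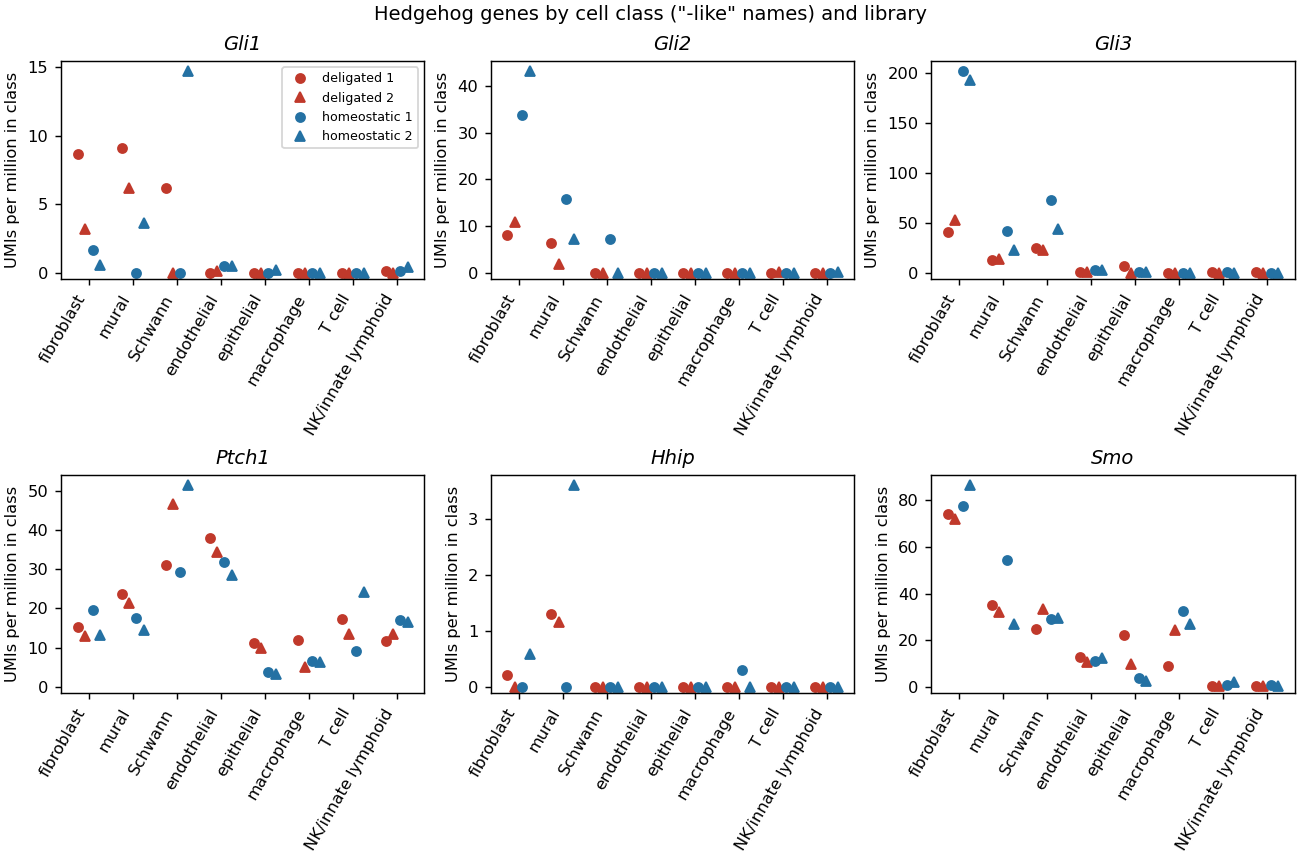
Level of each Hedgehog gene (y axis, CPM of the class in that library) in 8 cell classes (x axis), with 1 point per library, red for deligated and blue for homeostatic. Smo is highest in fibroblast-like cells in all 4 libraries, Gli3 reaches 202 and 193 CPM in homeostatic fibroblast-like cells, and Ptch1 is spread over all classes.

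Gli1 (chr10:127329882-127341974, minus strand), the transcription factor that is also a pathway target, was rare and stromal in the deligated libraries. Fibroblast-like cells held 41, 21, 3 and 1 Gli1 UMIs, or 8.65, 3.19, 1.69 and 0.599 CPM. Positive cells made up 8.76, 2.52, 1.15 and 0.402% of the class. Both deligated libraries lay above both homeostatic ones, with deligated 1 far above deligated 2. The log2 fold change was 2.34 (SE 0.81, 95% interval 0.53 to 4.16) and did not pass the threshold after adjustment over all 11415 genes tested (edgeR adjusted p = 0.0611). It passed in 3 of 11 alternative settings, over which edgeR and DESeq2 adjusted p ranged from 0.000367 to 0.276. Without deligated 2 the change was 2.98, and without deligated 1 the gene did not pass the filter. With all 4 libraries Gli1 passed that filter only through the deligated ones, where it was high.

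Mural-like cells held 21, 16, 0 and 2 Gli1 UMIs, or 9.07, 6.22, 0 and 3.61 CPM. Homeostatic 1 had 0 positive of 115 mural-like cells, which allows a share of cells with a UMI of up to 2.61%, and the 2 UMIs of homeostatic 2 have a counting interval of 0.438 to 13.1 CPM, which covers both deligated values. The gene did not pass the filter in this class. Of the mural-like cells, the cluster led by pericyte markers Kcnj8 and Abcc9 held 17.5, 10.7, 0 and 9.87 CPM of Gli1, and the cluster led by smooth muscle genes Tagln, Acta2 and Myh11 held 4.11, 3.66, 0 and 2.21 CPM. In the 3 libraries with any Gli1 in these clusters the pericyte value was higher, though homeostatic 2 rests on 1 UMI in each.

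When fibroblast-like and mural-like cells were summed per library, a step added after the data were seen, Gli1 stood at 62, 37, 3 and 3 UMIs, or 8.78, 4.04, 1.28 and 1.35 CPM. The groups did not overlap, and the log2 fold change of 2.29 (SE 0.64, 95% interval 0.83 to 3.76) passed the threshold (edgeR adjusted p = 0.0332, n = 2 libraries per group). With 3 UMIs in each homeostatic library, Gli1 passed the filter on low counts only through the deligated libraries, where it was high. The call is therefore no separate support for a change. Of the 12334 genes tested in that sum, 23.8% were called, and 3 of the 5 members tested were among them (Gli1 higher, Gli2 and Gli3 lower). Over 6 alternatives the adjusted p for Gli1 lay between 0.00347 and 0.187, and the call held in 2 of them. It was lost with DESeq2 (adjusted p = 0.0521), after removal of a trend over intron length (0.0638), without homeostatic 1 (0.187) and without homeostatic 2 (0.163), and without deligated 1 the gene did not pass the filter.

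A Gli1 UMI was found in 7.40, 2.91, 0.796 and 0.896% of stromal cells, a mean of 5.15% ± 3.17 (SD, n = 2) in the deligated and 0.846% ± 0.0705 (SD, n = 2) in the homeostatic libraries. Median UMIs per stromal cell were 9954.5, 7741, 6315 and 6568, so depth moved with the share. After thinning to 1000 UMIs, for which 672, 1174, 367 and 331 stromal cells were deep enough, 10, 7, 0 and 1 were positive, too few to read a change from. As a background, T cell-like cells had 0 positive of 597, 802, 166 and 160 cells at median counts of 4979.5 to 5367, and endothelial-like cells 0, 0.0644, 0.196 and 0.200% at median counts of 3610 to 5820. Homeostatic fibroblast-like shares of 1.15 and 0.402% have exact 95% binomial intervals of 0.237 to 3.31% and 0.0102 to 2.22%. The latter includes the endothelial-like share and the former starts just above it. These shares are not at equal depth, as homeostatic medians were 6730.5 and 6645 UMIs in fibroblast-like against 3610 and 3618 in endothelial-like cells. Intervals and upper limits given here cover counting error only.

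In the annotation Gli1 overlaps Arhgap9 and Gm47200 on the opposite strand, and whether counting used strand is not given in the sources used here. Arhgap9 stood at 0.422, 4.10, 1.69 and 0.599 CPM in fibroblast-like cells, where it was lowest in deligated 1, the library with most Gli1. In mural-like cells Arhgap9 stood at 2.59, 6.22, 0 and 1.81 CPM. Schwann-like cells came first of the 8 ranked classes for Gli1 by mean level (5.22 CPM), but this rests on 3 UMIs in 161 cells. The ranges of Schwann-like, mural-like and fibroblast-like cells overlapped.

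**Figure D2:**
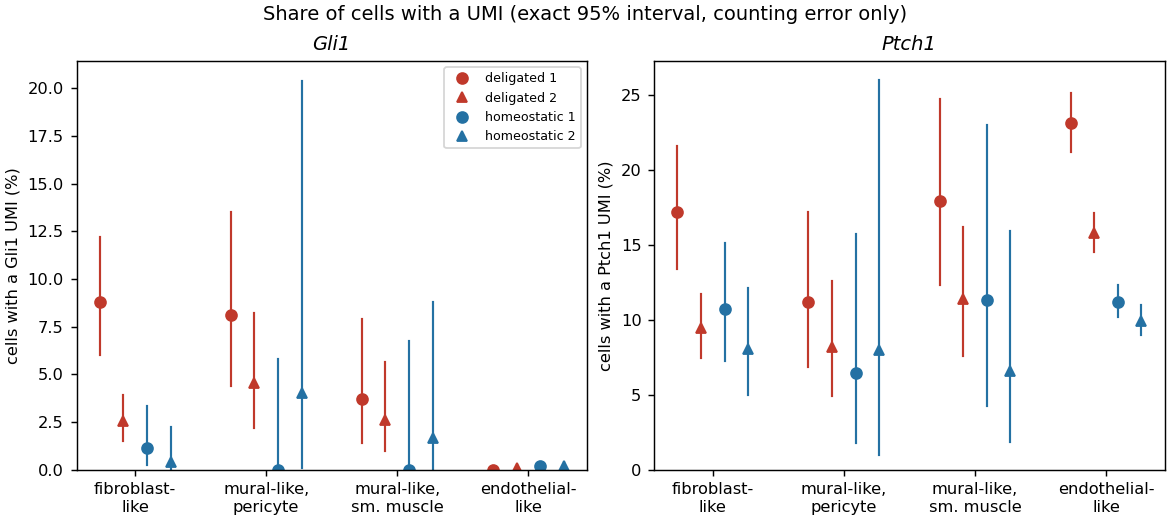
Share of cells with at least 1 UMI of Gli1 (left) and Ptch1 (right) per library (y axis, percent, with exact 95% binomial intervals for counting error only) in fibroblast-like cells, the 2 mural-like clusters and endothelial-like cells. Gli1 shares reach 8.76% in deligated 1 fibroblast-like cells and stay at or under 0.200% in endothelial-like cells, whereas Ptch1 shares are highest in endothelial-like cells of deligated 1 (23.1%).

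Gli2 (chr1:118834132-119053619, minus strand), the main activator, was lower in deligated than in homeostatic fibroblast-like cells. Its levels were 8.22, 10.8, 33.7 and 43.1 CPM, without overlap, a 3.83-fold lower value in the deligated group (log2 fold change -1.94, SE 0.23, adjusted p = 0.000235 by edgeR). Positive cells made up 10.5, 8.62, 15.6 and 21.7% of fibroblast-like cells although the deligated cells were deeper. Mural-like cells held 6.48, 1.94, 15.8 and 7.23 CPM, and the log2 fold change of -1.47 did not pass the test (95% interval -3.03 to 0.09, edgeR adjusted p = 0.286). Endothelial-like cells held 0, 1, 1 and 0 Gli2 UMIs.

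Gli3 (chr13:15463235-15730026, plus strand), mostly a repressor, moved in the same direction. Fibroblast-like cells held 41.1, 53.0, 202 and 193 CPM, 4.02-fold lower in the deligated libraries (log2 fold change -2.01, SE 0.15, adjusted p = 1.71e-05 by edgeR). A Gli3 UMI was present in 40.4, 34.4, 64.1 and 65.1% of fibroblast-like cells, and thinning to 1000 UMIs left 4.52, 6.43, 16.0 and 17.9%. Both measures separated the groups. Mural-like levels of 13.0, 14.0, 42.0 and 23.5 CPM did not overlap either, but the log2 fold change of -1.29 did not pass (SE 0.34, adjusted p = 0.0513 by edgeR). Endothelial-like cells held little Gli3, 0.623, 0.715, 2.92 and 3.15 CPM, and it fell there by 2.14 on the log2 scale (SE 0.30, adjusted p = 0.00295 by edgeR), with most cells of the 2 groups in different clusters. Schwann-like cells held 24.8, 23.3, 73.1 and 44.1 CPM, again lower in both deligated libraries, without a test because 1 library held 28 cells.

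Both genes have long introns, 213 kb for Gli2 and 257 kb for Gli3, and genes of that kind as a whole were lower in the deligated libraries. Genes with over 100 kb of intron gave 8.58, 8.28, 16.3 and 16.4% of fibroblast-like UMIs, and 9.92, 9.62, 15.5 and 15.3% of endothelial-like UMIs. Of the 561 fibroblast-like genes with 150 to 300 kb of intron, 89.7% had a log2 fold change below 0, with a median of -1.03, while the 9920 genes at or under 100 kb had a median of 0.07. The file headers name Cell Ranger 6.0.1 for the deligated and 7.0.0 for the homeostatic libraries, and the later release counts intronic reads by default. Whether introns were counted is not given in the sources used here. Software version, age and surgery cannot be told apart for these 2 genes or in any other comparison of the groups.

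With the trend over intron length taken out gene by gene, Gli2 and Gli3 in fibroblast-like cells kept log2 fold changes of -0.89 (edgeR adjusted p = 0.0256) and -0.84 (edgeR adjusted p = 0.00423), under a log2 unit instead of about -1.94 and -2.01. Gli3 in endothelial-like cells kept -1.22 (edgeR adjusted p = 0.0285), and in mural-like cells it stood at -0.43 (edgeR adjusted p = 0.604). The trend itself was -1.05 at the intron length of Gli2, -1.17 at that of Gli3, -0.26 at Ptch1, 0.03 at Smo and 0.20 at Gli1. Gli1, with 7.1 kb of intron, moved from 2.34 to 2.15 by this step.

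**Figure D3:**
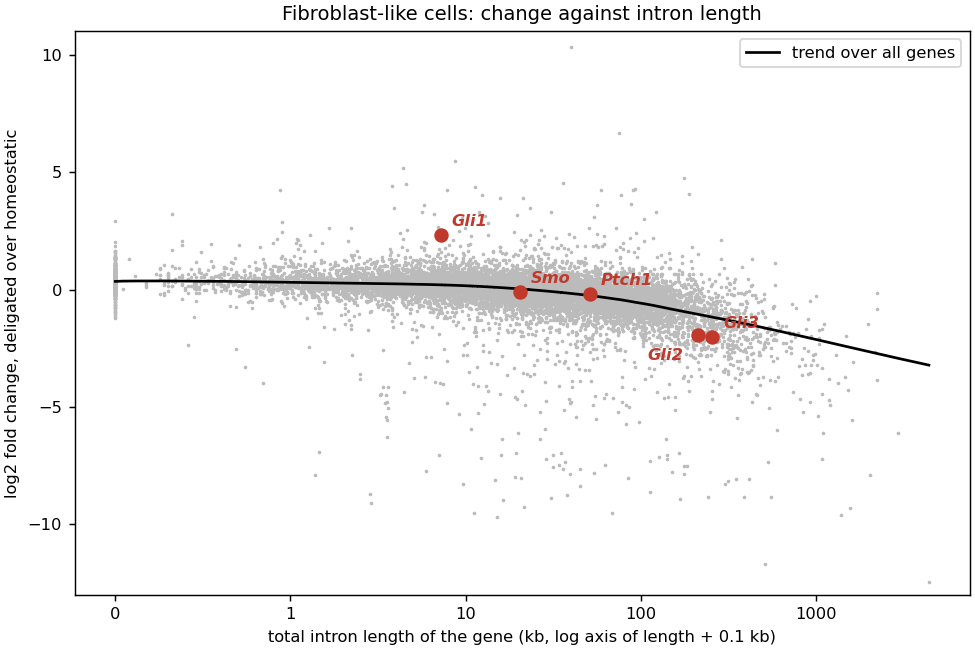
Log2 fold change, deligated over homeostatic, in fibroblast-like cells (y axis) against total intron length in kb (x axis, log scale of length + 0.1 kb), with 1 grey point per gene, the trend as a black line and the 5 members tested in red. Genes with over 100 kb of intron lie mostly below 0 (median -0.99), and Gli2 (-1.94) and Gli3 (-2.01) lie below the trend, which is -1.05 and -1.17 at their lengths.

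In all, 2 of the 5 members tested in fibroblast-like cells were called (Gli2 and Gli3, both lower), where 25.5% of the 11415 genes tested were called. The members' median log2 fold change was -0.18 against 0.006 for all genes. In mural-like cells 0 of 4 members tested were called by edgeR (1 at an unadjusted p under 0.05, and 0 by DESeq2), where 6.46% of genes were called. In endothelial-like cells 1 of 3 was called, where 35.4% of genes were. The test of whether the change differed between fibroblast-like and mural-like cells called 0 of 5 members (0 at an unadjusted p under 0.05, and DESeq2 gave no adjusted p for them), where 0.41% of genes were called. For Gli3 that difference was -0.61 (SE 0.32, adjusted p = 0.49 by edgeR), so no group change was shown to be particular to either stromal class.

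Between the 2 stromal classes themselves, 4 of the 5 members tested differed, where 54.2% of the 11696 genes tested did. Fibroblast-like cells were higher than mural-like cells in Gli3 (log2 fold change 2.09, SE 0.17, adjusted p = 3.64e-08 by edgeR), Gli2 (1.38, SE 0.32, adjusted p = 0.00185 by edgeR) and Smo. Ptch1 was lower (-0.53, SE 0.19, adjusted p = 0.0298 by edgeR), a call lost with DESeq2 (adjusted p = 0.268), with no filter on low counts (edgeR adjusted p = 0.096), without doublet removal (0.0517) and without either deligated library (edgeR adjusted p of 0.265 and 0.305). Gli1 did not pass (-0.46, 95% interval -1.35 to 0.42, edgeR adjusted p = 0.367). For reference, Pdgfra was higher by 8.46 in fibroblast-like cells and Pdgfrb lower by 1.55 (log2 fold change -1.55). Within mural-like cells, the pericyte cluster held more Gli3 than the smooth muscle cluster in all 4 libraries (25.7, 25.8, 99.7 and 49.4 against 5.48, 7.31, 8.33 and 17.7 CPM).

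**Figure D4:**
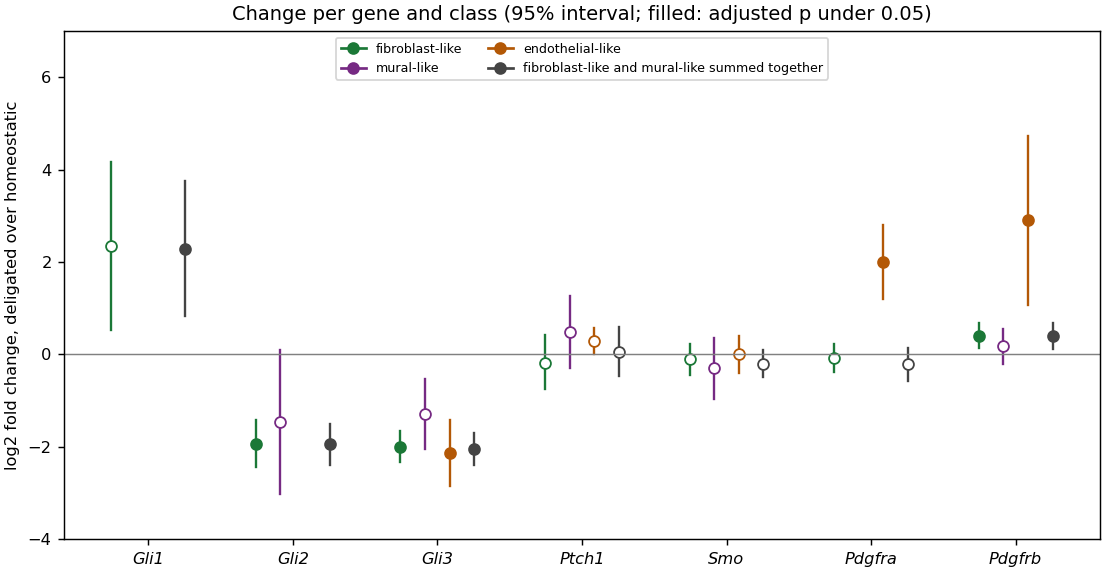
Log2 fold change, deligated over homeostatic (y axis), with 95% intervals for each gene tested (x axis) in fibroblast-like (green), mural-like (purple), endothelial-like (orange) and the 2 stromal classes summed (grey). Filled points have an adjusted p under 0.05. Gli2 and Gli3 lie near -2 in fibroblast-like cells, and Gli1 is filled only in the sum (2.29). Ptch1 (-0.18) and Smo (-0.11) lie near 0 in fibroblast-like cells. In mural-like cells they lie at 0.48 and -0.30, and in endothelial-like cells at 0.29 and 0.00, all unfilled.

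Hedgehog-positive stromal cells almost always carried a PDGF receptor UMI, as did stromal cells in general. Pdgfra was found in 99.4, 96.0, 98.1 and 99.2% of fibroblast-like cells and in 0.311, 2.90, 0 and 0% of mural-like cells. Pdgfrb was found in 92.7, 84.5, 71.0 and 73.9% of fibroblast-like and in 92.2 to 95.3% of mural-like cells. Over all stromal cells, a UMI of either receptor was present in 96.8% of the 1879 deligated and 97.2% of the 712 homeostatic cells. The receptor shares below are therefore given beside these base shares, and cells of a library are not replicates, so no test was made.

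Of 85 Gli1-positive stromal cells in the deligated libraries, 83 (97.6%) had a UMI of either receptor, 48 (56.5%) of both, 34 (40.0%) of Pdgfrb alone and 1 (1.18%) of Pdgfra alone. The base shares over deligated stromal cells were 51.6% both, 38.8% Pdgfrb alone and 6.39% Pdgfra alone. By library, both receptors were found in 30 of the 50 Gli1-positive cells of deligated 1, against 48.4% of all its stromal cells, and in 51.4% against 53.4% in deligated 2. Pdgfrb alone was found in 38.0% against 45.4% and in 42.9% against 35.1%, so the 2 libraries departed from the base in opposite directions. Deligated 1 supplied 50 of these cells, 49 of them with a receptor UMI, and deligated 2 supplied 35, of which 34 had one. By class, 50 were fibroblast-like and 35 mural-like. The 50 fibroblast-like ones had both receptors in 48 (96.0%), against 86.4% of all deligated fibroblast-like cells. That base was 92.1% in deligated 1, which held 30 of the 48, and 83.7% in deligated 2, which held 18. Gli1-positive fibroblast-like cells were also deeper than the others of that class (median 14607 against 12915 UMIs in deligated 1). In the homeostatic libraries there were 6 Gli1-positive stromal cells, of which 2 had both receptors, 2 Pdgfra alone and 2 Pdgfrb alone.

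Gli2-positive and Gli3-positive stromal cells were mostly double positive for the receptors. Both receptors were found in 81.0% of 121 deligated and 74.3% of 105 homeostatic Gli2-positive cells, and in 81.0% of 459 and 66.7% of 360 Gli3-positive cells, above the base shares of 51.6 and 52.0%. These base shares mix in mural-like cells, which hold almost no Pdgfra. Within fibroblast-like cells both receptors were found in 96.1 and 82.1% of Gli2-positive and in 92.3 and 72.7% of Gli3-positive cells (deligated and homeostatic), against 86.4 and 72.4% of all fibroblast-like cells, so homeostatic Gli3-positive cells lay at the base. Fibroblast-like cells with both receptors were also deeper than those with Pdgfra alone. Medians were 13317 against 11291 UMIs in deligated 1 and 9387 against 5955 UMIs in deligated 2, so depth moved with these shares. Over all stromal cells, Smo-positive cells followed at 72.5% of 705 and 62.2% of 249. Ptch1-positive cells, at 54.7% of 223 and 57.8% of 64, lay near the base. Pdgfrb alone, the mural-like pattern, was found in 39.9% of deligated Ptch1-positive and 40.0% of deligated Gli1-positive cells, but in 15.7% of Gli2-positive and 12.2% of Gli3-positive cells. Of the 8 Hhip-positive stromal cells, 5 had Pdgfrb alone, 2 both receptors and 1 neither.

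The share of positive cells that lay outside stroma separated the genes further. In the deligated libraries 85 of 89 Gli1-positive cells (95.5%) were stromal, whereas in the homeostatic libraries 6 of 26 (23.1%) were, and 14 of the other 20 were endothelial-like. Gli2 was stromal in 98.4% of 123 and 97.2% of 108 positive cells, and Gli3 in 92.4% of 497 and 78.4% of 459. For Smo the stromal share was 64.8% of 1088 and 28.1% of 885 positive cells. Ptch1 was mostly outside stroma, with 14.7% of 1518 and 5.22% of 1225 positive cells in the 2 stromal classes. These shares depend on how many stromal cells each library held (676, 1203, 377 and 335).

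**Figure D5:**
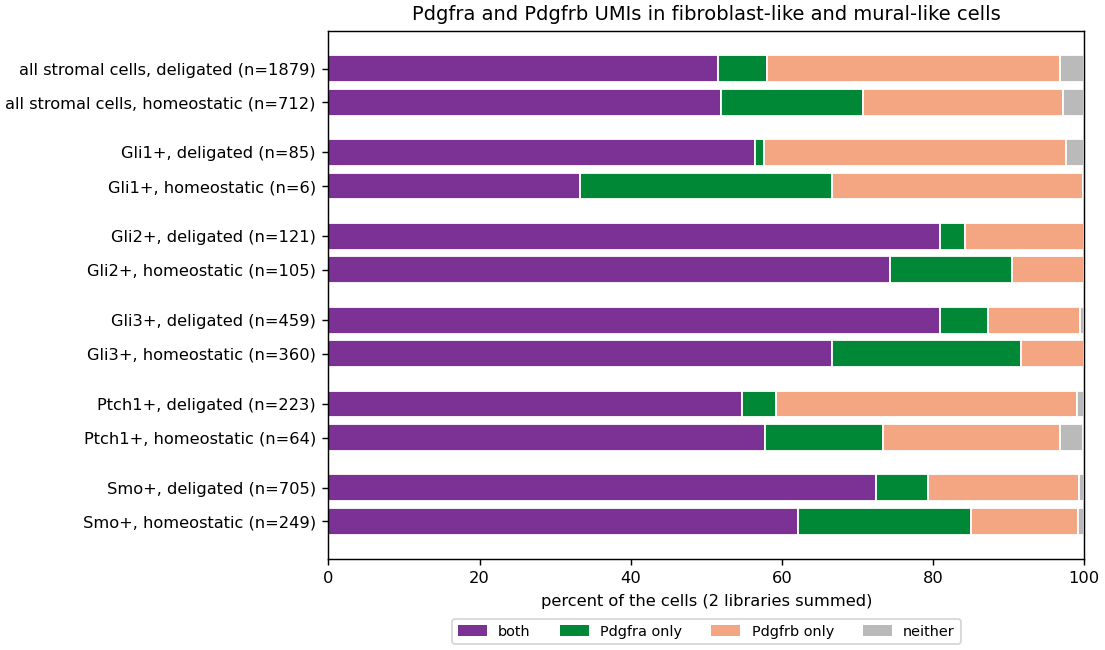
Percent of stromal cells (x axis) with UMIs of both receptors, Pdgfra alone, Pdgfrb alone or neither, for all stromal cells and for cells positive for each Hedgehog gene (rows, the 2 libraries of a group summed, number of cells in brackets). Gli1-positive (56.5% both) and Ptch1-positive (54.7%) deligated cells are set beside all deligated stromal cells (51.6% both), Pdgfra alone is 1.18% of Gli1-positive against 6.39% of all deligated stromal cells, and Gli2-positive and Gli3-positive cells have more of both (81.0%).

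Any of the 6 genes was detected in 82.5, 68.8, 82.4 and 85.5% of fibroblast-like and in 43.2, 34.3, 44.3 and 34.9% of mural-like cells. In deligated 1, 9 of the 31 Gli1-positive fibroblast-like cells had a Ptch1 UMI, where independence gives 5.34, and in deligated 2 it was 2 of 19, where it gives 1.79. Gli1 and Gli2 coincided in 4 cells of deligated 1, where independence gives 3.24, and in 6 cells of deligated 2, where it gives 1.64. Gli3 and Ptch1 coincided in 31, 34, 20 and 13 fibroblast-like cells, where independence gives 24.6, 24.4, 18.0 and 13.0. Gli1-positive fibroblast-like cells were deeper than negative ones in both deligated libraries (medians of 14607 against 12915 and 10730 against 9034 UMIs). At 1000 UMIs per cell no fibroblast-like cell held Gli1 with Ptch1 or Gli2, and Gli3 and Ptch1 coincided in 1, 2, 1 and 1 cells, where independence gives 0.407, 0.386, 0.479 and 0.894, too few to read an excess from. Fibroblast-like cells with a Pi16 or Dpp4 UMI, genes of adventitial fibroblasts, had 6.95, 3.53, 0 and 0 CPM of Gli1, and the others 9.90, 3.01, 1.82 and 0.664 CPM, with no order held across libraries.

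Around these genes, a list of 60 Hedgehog pathway genes was read by role. In fibroblast-like cells 49 passed the filter, of which 2 rose and 12 fell (28.6% called, against 25.5% of all genes), with a median log2 fold change of -0.18 against 0.006. The 2 that rose were Gas1 and Sfrp1, a Wnt antagonist and known Hedgehog target in other mesenchyme, which went from 83.7 and 82.7 to 322 and 219 CPM (log2 fold change 1.77, edgeR adjusted p = 0.000228). Sfrp1 was the only one of the 7 target genes tested to pass. Among the 22 signal transduction genes 4 fell: Sufu, which holds Gli proteins in check (log2 fold change -1.03), the ubiquitin ligase adaptors Btrc (-1.31) and Spop (-0.42), and the adenylyl cyclase gene Adcy5 (-0.76). Of 8 cilium transport genes 3 fell, Ift88 (-1.0), Tulp3 (-0.69) and Dync2h1 (-0.88), and of 4 ligand release genes 1, Disp1 (-1.41).

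Several of the genes that fell have long introns, such as Btrc (149 kb), Adcy5 (144 kb), Disp1 (130 kb) and Dync2h1 (240 kb). With the intron-length trend removed, 3 listed genes were higher (Sfrp1 1.88, Gsk3b 0.81 and Prkacb 0.67) and 4 lower (Gli2, Gli3, Cdon and Tulp3, the last at -0.66), in place of 2 and 12. Of the genes that had fallen, Dync2h1 (0.24), Adcy5 (0.04) and Spop (0.02) turned sign without passing, and Sufu (-0.55), Btrc (-0.48), Ift88 (-0.48) and Disp1 (-0.67) no longer passed (edgeR adjusted p from 0.0922 for Sufu to 0.951 for Spop). Gsk3b and Prkacb encode kinase subunits that act on Gli proteins. Over all genes in fibroblast-like cells the same step turned 944 higher and 1972 lower into 898 and 1020. These are 7.87 and 8.94% of all genes tested, where 14.3% of the listed genes were called. In mural-like cells 35 listed genes were tested, of which Gas1 rose (126, 142, 82.3 and 56.0 CPM, log2 fold change 0.94, edgeR adjusted p = 0.0194) and Btrc fell (-1.18), and with the trend removed neither passed (edgeR adjusted p of 0.149 and 0.266). These 2 are 5.71% of the listed genes tested, against 6.46% of all genes. The listed genes' median there was -0.05 against 0.016 for all genes. In endothelial-like cells 7 rose and 8 fell of 45 tested (33.3% called, against 35.4% of all genes). With the trend removed 9 were higher and 4 lower (28.9% called), where 11.6% of all genes were higher and 17.3% lower.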

How the data were processed

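The deposited matrices hold raw UMI counts per gene and barcode, made with Cell Ranger 6.0.1 (deligated) and 7.0.0 (homeostatic) per the file headers; the submitters' processing notes list Cell Ranger 6.0.1, Seurat and mm10. Whether counting used introns or strand, and the annotation, are not given in the sources used here. Gene positions and intron lengths came from GENCODE M21 on GRCm38, which matched 99.6% of the gene identifiers.

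Cells had at least 300 genes and at most 10% mitochondrial UMIs. Doublets were scored against simulated ones and removed at 0.8% per 1000 cells. Clustering used scanpy 1.11.5 (10000 counts per cell, 3000 variable genes, 30 components, 20 neighbours, Leiden resolution 1.0, 35 clusters, no batch correction). Naming a cluster took 3 or more markers of 1 class, each found in 10% or more of the cells and 2.0-fold above the other cells; 6 clusters stayed unnamed. Rebuilt class names may differ from the authors' own.

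Sums of counts over the cells of a class in a library were tested with edgeR 4.0.16 in R 4.3.3 (quasi-likelihood, TMM, filterByExpr) where each library held at least 30 cells, with Benjamini-Hochberg adjustment over all genes tested and a threshold of 0.05. An exact permutation of 2 against 2 libraries cannot go below p = 0.333 and was not used. The edgeR script was tested on simulated data. The alternatives were DESeq2 1.42.0, other size factors, no filter, a replicate block, intron-length trend removal (loess over genes), thinning to 1000 UMIs, cells of at least 1000 UMIs, Leiden resolution 2.0, no doublet removal and leaving out each library; the class sum and the crossed block were added after the data were seen. The named genes were the 6 members, Pdgfra, Pdgfrb, the ligands, the co-receptors and every listed gene called in a stromal class. A result that this rule would name is not reported here. The members and lists were chosen with earlier results of these data known.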

Additional observations from a re-analysis of the deposited data

How the results depend on the processing

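The number of members called in fibroblast-like cells was 2 and became 1 after thinning to 1000 UMIs. In mural-like cells it was 0 and became 1 without a filter on low counts, with thinning and without doublet removal. In endothelial-like cells it was 1, 2 with the intron-length trend removed and 0 after thinning. Between fibroblast-like and mural-like cells it was 4, and 2 after thinning. It was 3, without Ptch1, with DESeq2, with no filter on low counts and with no doublet removal, and Ptch1 passed in 4 of 9 alternatives. Leaving out 1 library at a time gave 2 to 3 members in fibroblast-like, 0 to 1 in mural-like, 1 to 2 in endothelial-like cells, 3 to 4 between the stromal classes, 0 for the difference in change, and 2 to 3 in the class sum. Gli2 and Gli3 stayed lower and called in fibroblast-like cells in all 12 and 13 alternatives that could be fitted (log2 fold changes of -2.13 to -0.89 and -2.14 to -0.84). Gli3 in mural-like cells passed in 4 of 13, with adjusted p from 0.00348 to 0.604.

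Among listed genes called lower in fibroblast-like cells, Dync2h1 (0.24), Adcy5 (0.04) and Spop (0.02) changed sign with the trend removed. Among the members, changes of sign were limited to values that had not passed the test. Ptch1 in fibroblast-like cells became 0.08 with the trend removed, and 0.01 and 0.13 without deligated 2 and homeostatic 1 (-0.42 to 0.13 without 1 library). Smo in mural-like cells became 0.23 without homeostatic 1 (-0.67 to 0.23). The difference in change between stromal classes became 0.58 for Gli3 after thinning, -0.15 and -5.70 for Gli1 without deligated 1 and homeostatic 2 (-5.70 to 2.29 in all), 0.93 and 0.26 for Gli2 without the same libraries (-1.22 to 0.93), and -0.31 for Smo without homeostatic 1 (-0.31 to 0.74). In the class sum Ptch1 became -0.10 without deligated 1 and -0.16 without homeostatic 2 (-0.16 to 0.31). The cause was not tested.

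Replicate numbers only name the libraries: same-numbered libraries correlated at -0.04, -0.03 and -0.14 in their deviations (fibroblast-like, mural-like and endothelial-like). With the replicate block 3 members were called in fibroblast-like cells, Gli1 being past the threshold at 2.42 (edgeR adjusted p = 0.013), 0 in mural-like, 1 in endothelial-like cells and 3 in the class sum. In fibroblast-like cells and in the class sum Gli1 passed the filter only through the deligated libraries, so its calls there add no separate support. A crossed pairing in endothelial-like cells called 5375 genes against 4651.

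Counts over all genes moved by over 1.5 times in these settings. In fibroblast-like cells 2916 became 1894 (DESeq2), 1918 (trend removed) and 966 (thinned), and 1349 to 4334 without 1 library. In mural-like cells 640 became 425, 281 and 279, 1123 without a filter, and 346 to 642. In endothelial-like cells 4651 became 2504 when thinned and 2103 to 7777. Between stromal classes 6343 became 2859 when thinned. For the difference in change 48 became 304 without a filter, 9 when thinned, 123 without doublet removal, and 29 to 186. In the class sum 2930 became 1864 with the trend removed and 1221 to 3604. With at most 62 Gli1 and 4 Hhip UMIs per library in stromal cells, results for both genes rest on few counts.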

Other observations

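Across 35 class and library sums of 10 classes, the 5 genes whose log2(CPM + 1) followed Gli1 most closely, of 11400 compared, were 4833422C13Rik (Pearson r = 0.75), Gm11627 (0.75), Heyl (0.70), Angpt2 (0.70) and Alx4 (0.70). For Ptch1 they were Foxo1 (0.83), Lats2 (0.83), Etnk1 (0.82), Sptan1 (0.82) and Actr1a (0.82). Heyl, a Notch target, and Angpt2, a vessel-destabilising ligand, are known from mural or endothelial cells. These values describe likeness across sums that share libraries and depth.

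In endothelial-like cells, as in NK/innate lymphoid-like cells, the stromal receptor genes themselves were higher in the deligated libraries. Most endothelial-like cells of the 2 groups lay in different clusters. Pdgfra stood at 3.67, 5.84, 0.974 and 1.43 CPM (log2 fold change 2.00, edgeR adjusted p = 0.00589) and Pdgfrb at 1.04, 4.23, 0.348 and 0.358 CPM (2.90, edgeR adjusted p = 0.029). Pdgfrb, with 15, 71, 5 and 5 UMIs, passed the filter on low counts only through the deligated libraries, so its call is no separate support for a rise. At most 2.96% of endothelial-like cells had a Pdgfra UMI. In NK/innate lymphoid-like cells mean levels were 2.69 (deligated) against 0.413 CPM (homeostatic) for Pdgfra and 3.96 against 0.068 CPM for Pdgfrb. T cell-like means were 3.11 against 1.57 CPM and 3.42 against 0 CPM, while Schwann-like cells held no Pdgfra in either group. The rise was thus not particular to endothelial-like cells. In fibroblast-like cells Pdgfrb stood at 301, 332, 255 and 246 CPM (0.40, edgeR adjusted p = 0.0369), while Pdgfra at 1050, 1410, 1330 and 1380 CPM did not pass (-0.08, edgeR adjusted p = 0.694). The deligated libraries also held more stromal cells (676 and 1203 against 377 and 335), and the part of stray stromal RNA in the endothelial values was not tested.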
